A study of Mus musculus with 50 samples.

Results

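Otx2 and 5 other genes of the primed epiblast (Pou3f1, Utf1, Fgf5, Lef1 and T), with the core pluripotency factors Pou5f1 and Sox2, were followed through mouse embryonic stem cells that lacked combinations of enzymes for histone H3 lysine 9 methylation. These 8 genes were taken by name, and all 8 had a row in both deposited expression tables, which held 24412 and 24413 genes. Of the 8, 7 reached 1 TPM in at least 2 libraries of either table and entered the tests, while T did not in either table. RNA was poly(A)-selected and sequenced from TT2-strain cells in 50 libraries, 2 for each of 25 groups.

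The first table held 18 libraries of 9 groups. QKO cells (G9a;Suv39h1/2;Setdb1-QKO) lacked all 4 enzymes, and Dux-KO QKO cells (Dux-KO:G9a;Suv39h1/2;Setdb1-QKO) also lacked Dux, a homeobox gene that switches on the program of the 2-cell embryo. The others were Setdb1-KO, Suv39h1/2-DKO, Suv39h1/2;Setdb1-TKO (here Setdb1-TKO), G9a-KO, G9a;Setdb1-DKO (here G9a-DKO), G9a;Suv39h1/2-TKO (here G9a-TKO) and control. The second table held 32 libraries in which the same 8 genotypes apart from Dux-KO QKO were carried by Tet-on-Dux:Dux-KO lines, each with and without doxycycline, which switches the Dux transgene on. The dose label was 0.2 for control and Setdb1-KO and 1 for the other 6 genotypes, with no unit given. All groups of the second table therefore share the loss of endogenous Dux and the transgene, control included. The word OHT stood in each title of a group without Setdb1 and NT in the others. The labels explain neither, so what OHT stands for and the loss of Setdb1 cannot be told apart. The labels do not say whether the 2 replicates of a group were separate cultures, so p-values measure the spread between these samples, which may be technical.

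Embryonic stem cells can rest in a naive state like the preimplantation epiblast or move on to a primed state like the epiblast after implantation. Otx2 is a homeobox transcription factor that redirects Oct4, the product of Pou5f1, to enhancers used during this transition, and Pou3f1 is a POU factor that appears with it. Fgf5 is a secreted growth factor used as a marker of the primed epiblast, Lef1 is a DNA-binding partner of beta-catenin in Wnt signalling, Utf1 is a chromatin-bound factor of pluripotent cells, and T (brachyury) marks the primitive streak. Setdb1, Suv39h1 with Suv39h2, and G9a (gene Ehmt2) place methyl groups on lysine 9 of histone H3, a mark of silent chromatin.

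Promoter sequences are shown for Otx2 and Fgf5, the 2 members whose libraries without Setdb1 lay above those that kept it in all 4 lines of the first table. Otx2 lies on the minus strand at chr14:48657677-48673819 and Fgf5 on the plus strand at chr5:98254184-98277030 (GRCm38). RefSeq (GRCm38.p6) gave start-site windows, from 250 bases before to 50 after a start, for 7 of the 8 members, 14 windows in all and 4 of them for Otx2. Capitals mark TATAAA, the letters of a TATA box, in the upstream window of Otx2 and in that of Fgf5. In the inner window of Otx2 they mark the core bound by OTX proteins, read there on the other strand. The windows of Otx2 that are not shown held none of the motifs searched. The upstream Otx2 window is chr14:48667595-48667894 (minus strand), the inner one is chr14:48665060-48665359 (minus strand) and that of Fgf5 is chr5:98253934-98254233 (plus strand).
Otx2 upstream start: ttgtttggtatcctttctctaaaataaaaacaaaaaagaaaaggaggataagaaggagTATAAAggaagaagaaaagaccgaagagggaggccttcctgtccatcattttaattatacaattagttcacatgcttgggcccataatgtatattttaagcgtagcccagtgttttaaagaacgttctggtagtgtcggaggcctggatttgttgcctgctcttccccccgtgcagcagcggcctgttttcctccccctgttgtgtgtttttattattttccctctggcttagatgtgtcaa
Otx2 inner start: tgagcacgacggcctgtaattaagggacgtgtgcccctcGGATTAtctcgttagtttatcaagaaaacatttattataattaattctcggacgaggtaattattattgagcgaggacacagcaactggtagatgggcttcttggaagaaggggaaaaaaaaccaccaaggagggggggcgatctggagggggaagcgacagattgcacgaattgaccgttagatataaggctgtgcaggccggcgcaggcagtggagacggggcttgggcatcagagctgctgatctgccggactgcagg
Fgf5: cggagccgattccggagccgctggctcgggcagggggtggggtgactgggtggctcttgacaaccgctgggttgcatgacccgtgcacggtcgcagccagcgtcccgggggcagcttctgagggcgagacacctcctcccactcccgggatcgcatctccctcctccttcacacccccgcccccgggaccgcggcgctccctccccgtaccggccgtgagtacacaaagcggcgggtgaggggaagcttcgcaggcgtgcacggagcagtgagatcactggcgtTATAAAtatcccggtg
Motifs were searched on both strands, and all RefSeq windows of this length, 32817 in number, served as the comparison. The OTX core TAATCC stood in 7.06% of them and, besides Otx2, in a window of Pou5f1. TATAAA stood in 13.6% and, besides Otx2 and Fgf5, in a window of Lef1. Its first base is base 59 of the upstream Otx2 window and base 285 of that of Fgf5, counted from 1 at the 5′ end, so that in Fgf5 it follows the start and in Otx2 it lies well before it. ATGCAAA, the core bound by octamer factors, stood in 4.63% and in the window of Sox2. The SOX core ACAATG was found in 12.6%, among them a window of Lef1 and one of Pou5f1. The LEF/TCF core CTTTGAT was found in 3.73% and in none of the 14 windows of the members. The window of Fgf5 held 29 CpG, the upstream and inner windows of Otx2 held 6 and 16, and the median over all windows was 7 (quartiles 3 and 20). The tables give a sum over all transcripts of a gene, so which start was used was not measured.

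Values were TPM, a transcript share scaled for gene length and library size, so sequencing depth is unknown and levels of different genes can be set side by side. Between 11742 and 13274 genes per library reached 1 TPM. Tests were made by limma on log2(TPM + 1), a scale that understates the change of genes with low TPM. A gene was called where the log2 fold change was 1 or more in either direction and the Benjamini-Hochberg adjusted p fell under 0.05. The 2 tables were normalised separately and no test was made between them. The targeted transcripts were lower but not absent: Setdb1 had a mean of 22.9 TPM in Setdb1-KO and 51.0 TPM in control libraries, and Ehmt2 had 15.1 TPM in G9a-KO and 87.3 TPM in control libraries. Markers of feeder fibroblasts summed to at most 11.7 TPM over 10 genes in any library of the first table.

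Otx2 was higher than in control cells in all 8 mutant genotypes of the first table, and highest where Setdb1 was lost. It had 56.4 and 65.7 TPM in Setdb1-KO libraries and 5.12 and 5.04 TPM in control libraries, a log2 fold change of 3.35 (SE 0.13, adjusted p = 1.07e-10). In Setdb1-TKO cells it had 64.2 and 57.7 TPM, with a log2 fold change of 3.35 over control (SE 0.13, adjusted p = 1.2e-10). The libraries of these genotypes overlapped, and Setdb1-TKO over Setdb1-KO was not called (adjusted p = 1), in a comparison that called 0.0938% of all genes.

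Where G9a was lost as well, Otx2 had 47.7 and 59.99 TPM in G9a-DKO libraries (log2 fold change over control 3.16, SE 0.13) and 84.99 and 76.5 TPM in QKO libraries (3.75, SE 0.13). Dux-KO QKO libraries had 102 and 101 TPM (4.07, SE 0.13), the highest Otx2 level of the table. Every library that lacked Setdb1 lay above every library that kept it.

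The genotypes that kept Setdb1 were lower but still above control. Otx2 had 20.7 and 24.8 TPM in G9a-TKO libraries (log2 fold change over control 1.96, SE 0.13, adjusted p = 4.45e-08) and 16.4 and 18.3 TPM in G9a-KO libraries (1.59, SE 0.13, adjusted p = 2.78e-07). It had 11.3 and 10.5 TPM in Suv39h1/2-DKO libraries, where the log2 fold change over control was 0.97 (SE 0.13, adjusted p = 0.000665). That was below the fold threshold, and with a pseudocount of 0.1 in place of 1 it was 1.08 and called. Otx2 was the single member called in Setdb1-KO, Setdb1-TKO, G9a-KO and G9a-TKO over control, where 6.28%, 6.99%, 9.26% and 6.72% of all genes were called, and 0 of 7 were in Suv39h1/2-DKO, beside 0.541%.

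Ordered by mean level, Dux-KO QKO was followed by QKO, then by Setdb1-KO, Setdb1-TKO and G9a-DKO, then by G9a-TKO, G9a-KO, Suv39h1/2-DKO and control. Setdb1-KO, Setdb1-TKO and G9a-DKO overlapped in their libraries and could not be ordered, while no other neighbours in this order overlapped. Dux-KO QKO over QKO was 0.32 on the log2 scale (SE 0.13, adjusted p = 0.0587), against a median of 0.22 over all genes in the same comparison, and 0.08 after scaling by median ratios. Of all genes 6.54% were called there, and no member was. In Dux-KO QKO libraries, 2-cell-like marker genes summed to 22.7 to 24.0 TPM, against 4400 to 4507 TPM for the same 6 genes in QKO libraries. The first table held no Dux-KO group that kept Setdb1, and the part of 2-cell-like cells in the Otx2 level was not tested.

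**Figure D1:**
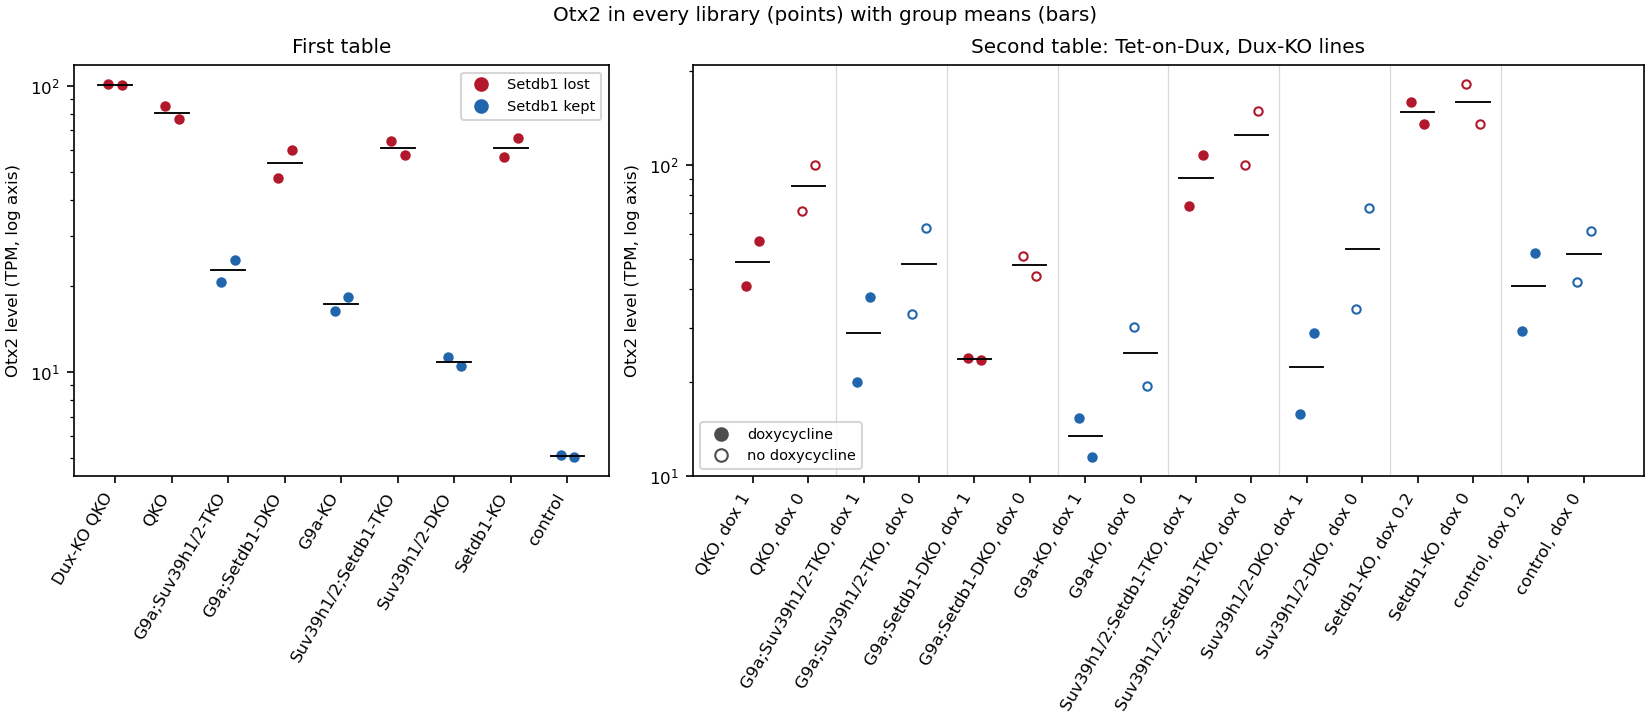
Otx2 level (TPM, log axis) in each library of the first table (left) and of the Tet-on-Dux, Dux-KO lines (right). Points are libraries, bars are means of 2, red marks groups without Setdb1, and filled points at right received doxycycline. In the left panel all red points, from 47.7 to 102 TPM, lie above all blue points, from 5.04 to 24.8 TPM.

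Setdb1 loss was asked within each line of the first table, since the line sets the level it starts from. Otx2 was called higher in 4 of 4 lines and the libraries did not overlap in any, a count not made over all genes. The log2 fold change was 3.35 in the control line, 2.38 for Setdb1-TKO over Suv39h1/2-DKO (SE 0.13, adjusted p = 3.76e-09), 1.57 for G9a-DKO over G9a-KO (SE 0.13, adjusted p = 5.17e-07) and 1.79 for QKO over G9a-TKO (SE 0.13, adjusted p = 6.88e-08). The share of all 13862 genes called in these comparisons was 6.28%, 6.41%, 5.43% and 9.1%.

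The rise with Setdb1 loss was smaller on the log2 scale where G9a was also missing. The difference of the Setdb1 effect, G9a line minus control line, was -1.77 (SE 0.18, adjusted p = 3.86e-05), and that of the G9a;Suv39h1/2 line minus control line was -1.56 (SE 0.18, adjusted p = 6.54e-05). Both were called, as were 4.18% and 5.48% of all genes in the same comparisons. For the Suv39h1/2 line minus control line it was -0.97 (SE 0.18, adjusted p = 0.0518), which was not called in a comparison that called 0.166% of all genes. After median-ratio scaling it was -1.06 and called. Where Setdb1 was kept, Otx2 had 16.4 to 24.8 TPM in the 2 lines without G9a and 5.04 to 5.12 TPM in the control line.

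**Figure D2:**
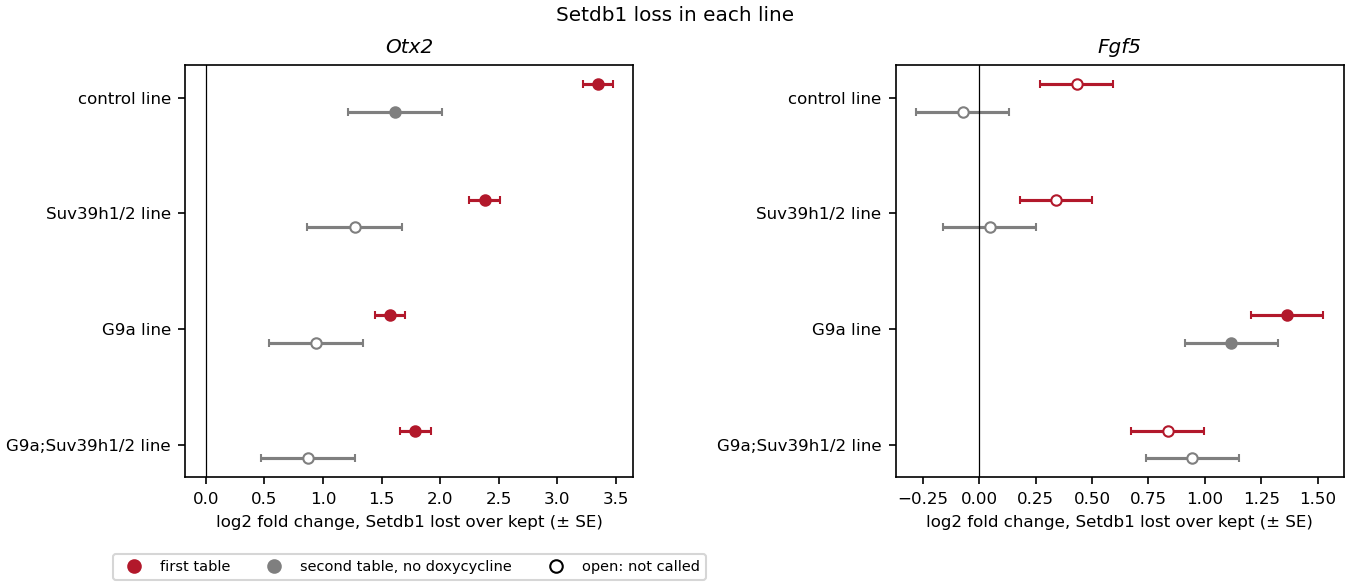
Log2 fold change of Otx2 (left) and Fgf5 (right) for Setdb1 lost over Setdb1 kept in 4 lines, with the standard error of the model. Red is the first table and grey the second table without doxycycline, and open points were not called. Otx2 lies above 0 in all 4 lines of both tables.

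G9a loss was set against each other background. Over Suv39h1/2-DKO, the gain in G9a-TKO was 0.99 for Otx2 (SE 0.13, adjusted p = 4.7e-05), just below the fold threshold. Over Setdb1-KO, G9a-DKO differed by -0.18 (SE 0.13, adjusted p = 0.315), and QKO over Setdb1-TKO by 0.40 (SE 0.13, adjusted p = 0.0284), neither called. G9a-TKO over G9a-KO, which adds the loss of Suv39h1/2, differed by 0.37 (SE 0.13, adjusted p = 0.087) and QKO over G9a-DKO by 0.58 (SE 0.13, adjusted p = 0.00558), where 1.61% and 3.25% of all genes were called and no member was.

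Otx2 is also made in visceral endoderm, and markers of primitive endoderm moved with G9a. All 16 of these markers were called higher in G9a-KO than in control, and they summed to 1901 to 2263 TPM in G9a-KO and 438 to 445 TPM in control libraries. Their part in the higher Otx2 level was not tested. Across Setdb1 loss the sums went in both directions. They were 463 to 577 TPM in Setdb1-KO and 438 to 445 TPM in control libraries (2 of 16 markers called higher), and 769 to 862 TPM in Setdb1-TKO and 690 to 753 TPM in Suv39h1/2-DKO libraries (1 called higher). They were 1110 to 1332 TPM in G9a-DKO and 1901 to 2263 TPM in G9a-KO libraries (6 called lower), and 604 to 817 TPM in QKO and 1646 to 2212 TPM in G9a-TKO libraries (16 called lower). In bulk RNA, a change in the share of cells that make a transcript and a change in the amount per cell cannot be told apart.

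The 2 annotated genes on each side of Otx2 were followed as well. Exoc5 (chr14:49004090-49066653), a subunit of the exocyst, had a mean of 33.7 TPM in Setdb1-KO and 33.0 TPM in control libraries and was not called in any comparison. Peli2 (chr14:48120823-48281575), a ubiquitin ligase, had 4.92 TPM in Setdb1-KO and 5.23 TPM in control libraries. It was called lower in G9a-TKO over control (log2 fold change -1.04, SE 0.14, adjusted p = 6.2e-05). With Setdb1 loss it was called higher in 1 line of the first table, QKO over G9a-TKO (1.05, SE 0.14, adjusted p = 3.94e-05). That was the direction of Otx2, with means of 5.30 TPM in QKO and 2.03 TPM in G9a-TKO libraries. G9a-DKO over G9a-KO was 0.71 (SE 0.14, adjusted p = 0.00195), below the fold threshold. In the second table, without doxycycline, Peli2 differed by -0.05 in QKO over G9a-TKO (SE 0.16, adjusted p = 0.949). There G9a-DKO over G9a-KO was 0.50 (SE 0.16, adjusted p = 0.0531). Tmem260 lay at 1.59 TPM in Setdb1-KO and 1.69 TPM in control libraries, and 4933429O19Rik was listed at 0 in the first table. Otx2os1, which lies over Otx2 on the other strand, did not exceed 0.128 TPM in the first table.

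Pou3f1 did not follow Otx2. It had 1.64 TPM in both Setdb1-KO libraries and 3.96 and 2.81 TPM in control libraries, with a log2 fold change of -0.72 (SE 0.25, adjusted p = 0.0352), below the fold threshold. In Setdb1-TKO it had 1.97 and 0.790 TPM (-0.91 over control, SE 0.25, adjusted p = 0.0108), which a pseudocount of 0.1 moved to -1.34 and into the calls. Its libraries in both groups lay below those of control. So did those of Suv39h1/2-DKO, which kept Setdb1, at 2.79 and 1.47 TPM (-0.51 over control, SE 0.25, adjusted p = 0.466, not called).

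Without G9a, Pou3f1 lay above control in 4 of the 5 genotypes of the first table and was called in 1, Dux-KO QKO. It had 6.67 and 5.82 TPM in G9a-KO libraries (log2 fold change over control 0.74, SE 0.25, adjusted p = 0.0307), and 5.84 and 5.31 TPM in G9a-DKO libraries. G9a-DKO over Setdb1-KO was 1.32 (SE 0.25, adjusted p = 0.000787), and QKO over Setdb1-TKO, at 6.13 and 4.44 TPM in QKO libraries, was 1.43 (SE 0.25, adjusted p = 0.000446). Both were called, beside 8.64% and 7.31% of all genes. In G9a-TKO it had 4.65 and 3.32 TPM, overlapping control (0.19, SE 0.25, adjusted p = 0.634). The highest level was in Dux-KO QKO, with 9.56 and 10.9 TPM (1.37 over control, SE 0.25, adjusted p = 0.00025), where primitive endoderm markers summed to 1903 to 1998 TPM. That comparison called 3 of the 7 tested members, Otx2, Fgf5 and Pou3f1, and 21.2% of all genes. Of these, Fgf5 entered the tests only through groups in which it was high, Dux-KO QKO among them.

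Fgf5 was near the limit of detection in control cells and rose where Setdb1 and G9a were lost together. It had 2.85 and 3.86 TPM in G9a-DKO libraries and 0.168 and 0.0517 TPM in control libraries (log2 fold change 1.97, SE 0.16, adjusted p = 1.42e-07). It had 2.00 and 1.37 TPM in QKO libraries (1.27, SE 0.16, adjusted p = 1.27e-05) and 3.51 and 4.28 TPM in Dux-KO QKO libraries (2.14, SE 0.16, adjusted p = 3.47e-08). These 6 libraries were the only ones of 18 at 1 TPM or more, so that Fgf5 entered the tests through the groups in which it was high. G9a-DKO and QKO each called 2 of the 7 tested members over control, Otx2 and Fgf5, beside 14.4% and 15.6% of all genes.

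In single losses Fgf5 stayed below 1 TPM. It had 0.514 and 0.475 TPM in Setdb1-KO libraries (0.43 over control, SE 0.16, adjusted p = 0.0506) and 0.767 and 0.598 TPM in G9a-KO libraries (0.60, SE 0.16, adjusted p = 0.00904). Neither was called with a pseudocount of 1, and with 0.1 both were, at 1.56 and 1.95. G9a-DKO over G9a-KO was called at 1.36 (SE 0.16, adjusted p = 2.06e-05). QKO over G9a-TKO, with 0.353 and 0.653 TPM in G9a-TKO libraries, was 0.83 (SE 0.16, adjusted p = 0.000852), below the fold threshold. Under log2(TPM + 1), the Setdb1 effect on Fgf5 was 0.93 larger in the G9a line than in the control line (SE 0.23, adjusted p = 0.017). That was the opposite direction to Otx2 and below the fold threshold. This scale understates changes near 0, and with a pseudocount of 0.1 the effects were 2.14 and 1.56. The difference was not called with either pseudocount. Fgf5 entered the tests through G9a-DKO, QKO and Dux-KO QKO, so p-values that involve these groups are not independent of the filter. Suv39h1/2-DKO, with 0.153 and 0.237 TPM, was 0.11 over control (adjusted p = 0.92).

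Lef1 had 9.65 and 10.3 TPM in control libraries and was not called without Setdb1, with 8.75 and 13.7 TPM in Setdb1-KO libraries (0.12 over control, SE 0.21, adjusted p = 0.673). It was highest where G9a was lost and Setdb1 kept. G9a-TKO libraries had 18.8 and 22.0 TPM and Suv39h1/2-DKO libraries had 6.39 and 8.34 TPM, a log2 fold change of 1.36 (SE 0.21, adjusted p = 0.000176), called beside 6.25% of all genes. G9a-KO libraries had 17.1 and 21.2 TPM (0.86 over control, SE 0.21, adjusted p = 0.00425). The gain was not seen in G9a-DKO, at 8.62 and 12.6 TPM, and G9a-DKO over G9a-KO was -0.80 (SE 0.21, adjusted p = 0.0102), below the fold threshold.

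Utf1 was among the abundant transcripts, at 254 to 682 TPM. It was not called in any comparison, but lay lower without Setdb1 in 4 of 4 lines, with log2 fold changes of -0.73 to -0.21. In the second table, without doxycycline, it lay higher without Setdb1 in 3 of 4 lines, with -0.13 to 0.53. In the first table its lowest level was in QKO, with 393 and 254 TPM against 667 and 541 TPM in control libraries (-0.92, SE 0.19, adjusted p = 0.000825). Dux-KO QKO libraries had 598 and 599 TPM, and Dux-KO QKO over QKO was 0.92 (SE 0.19, adjusted p = 0.00151), or 0.67 after median-ratio scaling.

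T stayed between 0.253 and 0.925 TPM in all 18 libraries and was not tested in the main comparisons. When all expressed genes were kept it was not called, with -0.02 in Setdb1-KO over control (SE 0.17, adjusted p = 1) and -0.36 in QKO over control (SE 0.17, adjusted p = 0.118).

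Pou5f1 was the most abundant member and the steadiest, at 1954 to 2621 TPM. It had 2429 and 2406 TPM in Setdb1-KO libraries and 2274 and 2285 TPM in control libraries (log2 fold change 0.08, SE 0.07, adjusted p = 0.4). Its widest difference was G9a-DKO over G9a-KO, with 2621 and 2403 TPM in G9a-DKO and 1954 and 1956 TPM in G9a-KO libraries (0.36, SE 0.07, adjusted p = 0.00237), far below the fold threshold. Sox2 lay at 284 to 514 TPM and was highest in QKO, with 514 and 452 TPM against 357 and 308 TPM in control libraries (0.54, SE 0.14, adjusted p = 0.00431). Dux-KO QKO libraries overlapped those of QKO, at 449 and 492 TPM of Sox2 (0.50 over control, SE 0.14, adjusted p = 0.0063). Sox2ot, which overlaps Sox2 on the same strand, had a mean of 1.94 TPM in QKO and 0.761 TPM in control libraries. That was 0.74 (SE 0.18, adjusted p = 0.00365), not called. In Dux-KO QKO it had 2.93 TPM and was called over control (1.14, SE 0.18, adjusted p = 9.22e-05), beside 21.2% of all genes. The sources used here do not say how reads were divided between Sox2 and Sox2ot.

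**Figure D3:**
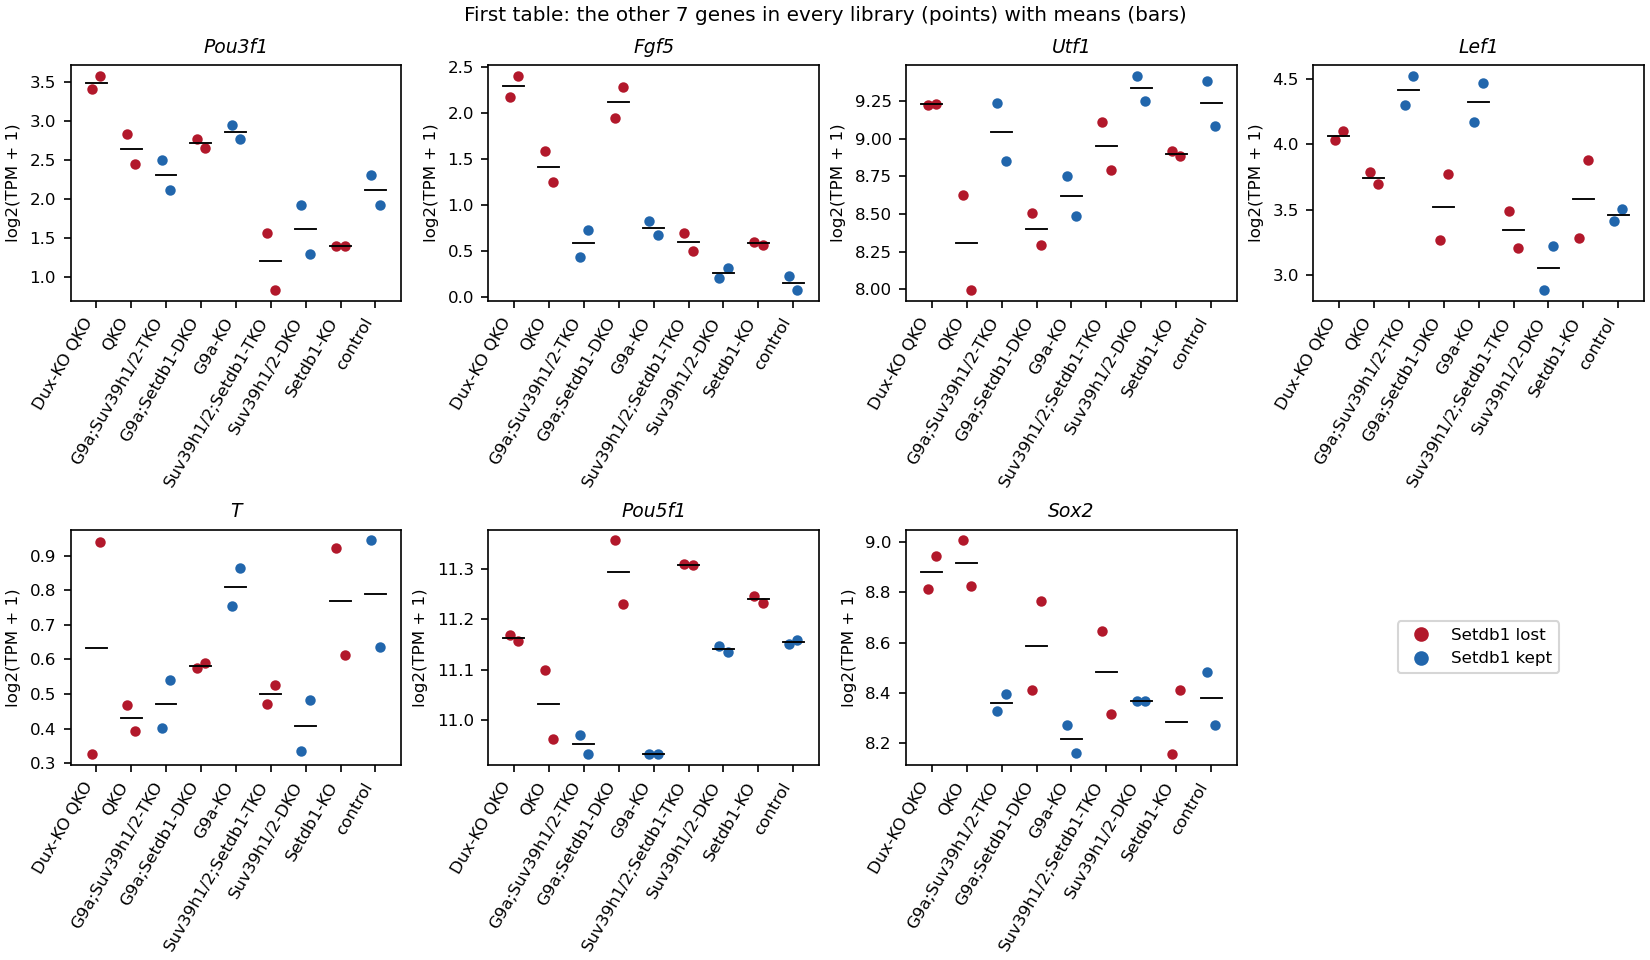
The other 7 members in each library of the first table, as log2(TPM + 1), each panel on its own scale. Points are libraries, bars are means of 2 and red marks groups without Setdb1. Fgf5 is highest in the 3 groups that lack both G9a and Setdb1, while Pou5f1 spans less than 0.4 log2 units between group means.

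Other genes of the pathways are given by list, beside the 6.28% of all genes called in Setdb1-KO, 9.26% in G9a-KO and 15.6% in QKO over control. Of 16 other formative and primed epiblast genes, Setdb1-KO over control called 2 higher and 2 lower (median log2 fold change -0.36, all genes -0.12), G9a-KO called 2 higher and 1 lower (median 0.36, all genes -0.01) and QKO called 3 higher and 2 lower (median 0.12, all genes -0.05). Grhl2, an epithelial transcription factor, was highest among the risers, with a mean of 2.92 TPM in Setdb1-KO, 12.7 TPM in G9a-KO and 13.2 TPM in QKO against 0.709 TPM in control libraries. Tcf15, a basic helix-loop-helix factor, had the widest fall, at 189 TPM in Setdb1-KO, 250 TPM in G9a-KO and 105 TPM in QKO against 545 TPM in control libraries.

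Of 12 genes of the FGF and ERK pathway, 1 was higher in Setdb1-KO, 1 in G9a-KO and 2 in QKO, and 0 were lower in these comparisons (limma, with 7, 8 and 4 of the 12 at an unadjusted p under 0.05). Dusp4, a phosphatase of ERK kinases, rose in all of them, to 58.0 TPM in Setdb1-KO, 54.9 TPM in G9a-KO and 96.9 TPM in QKO, against 12.7 TPM in control libraries. Its log2 fold changes were 2.10, 2.03 and 2.84 (SE 0.13 each). Counts at an unadjusted p, for this and the other lists, were not made over all genes. They are not read as a change of a pathway. Of 12 Nodal pathway genes 1 was higher in Setdb1-KO and 0 were lower. In G9a-KO 3 Nodal pathway genes were higher and 1 lower, and in QKO 0 were called (8 at an unadjusted p under 0.05), with Tdgf1, a Nodal co-receptor, at 1511 TPM against 904 TPM in control libraries (0.74). Of 9 tested Wnt pathway genes 0 were called in Setdb1-KO (5 at an unadjusted p under 0.05), G9a-KO had 1 higher (Dkk1, a secreted Wnt inhibitor, 11.9 TPM against 1.59 TPM in control libraries) and 1 lower (Cdx1, 1.03 against 10.95 TPM), and QKO had 1 lower (Cdx1, 1.22 TPM).

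Of 13 naive pluripotency genes 3 were lower in Setdb1-KO (median -0.46), led by Prdm14 at 7.12 TPM against 20.1 TPM in control libraries. G9a-KO had 1 higher and 2 lower (median -0.37) and QKO 3 higher and 1 lower (median -0.21). The gene with the widest rise in both was Dppa3, a maternal factor of germ cells, at 31.98 TPM in G9a-KO and 27.2 TPM in QKO against 4.71 TPM in control libraries. The 5 other core pluripotency genes were not called in Setdb1-KO, G9a-KO or QKO over control (2, 2 and 1 at an unadjusted p under 0.05), with Trim28, a partner of Setdb1 in silencing, at 624 TPM in Setdb1-KO and 892 TPM in control libraries (-0.52, SE 0.11, adjusted p = 0.00281). Of 5 tested primitive streak genes 1 was higher in Setdb1-KO, Wnt8a at 2.16 TPM against 0.301 TPM in control libraries, and 0 were called in G9a-KO or QKO (0 and 1 at an unadjusted p under 0.05). Of 6 tested anterior neural genes, 1 fell in Setdb1-KO, Sox1 at 2.29 TPM against 14.3 TPM in control libraries, 2 rose in G9a-KO, among them Nes at 15.0 TPM against 4.81 TPM, and 2 fell in QKO. Trophoblast markers summed to 8.32 to 8.92 TPM in Setdb1-KO, 4.48 to 4.81 TPM in G9a-KO, 5.68 to 7.34 TPM in QKO and 2.78 to 2.96 TPM in control libraries, over 8 genes.

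Of the 32 libraries of the second table, 6 stood apart in their Snhg transcripts, small nucleolar RNA host genes, with a mean log2(TPM + 1) above 4, as in all 18 libraries of the first table. They were 1 library each of control, Setdb1-KO and G9a-DKO without and of Setdb1-KO, G9a-KO and G9a-DKO with doxycycline.

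There Otx2 started from a higher level. Control libraries without doxycycline had 41.9 and 61.2 TPM, in lines that lack Dux and carry the transgene, beside 5.12 and 5.04 TPM in control libraries of the first table. Without doxycycline, Otx2 had 182 and 136 TPM in Setdb1-KO libraries, a log2 fold change over control of 1.61 (SE 0.40, adjusted p = 0.0187), where 1 of the 7 tested members and 2.52% of 13819 genes were called. It had 99.8 and 149 TPM in Setdb1-TKO libraries (1.25, SE 0.40, adjusted p = 0.0466), where 3.5% of genes were called. The libraries of both groups lay above those of control. The call in Setdb1-TKO ended when any 1 of the 4 libraries was left out, with log2 fold changes of 0.96 to 1.54, and the call in Setdb1-KO ended when any of 3 of the 4 was left out, with 1.35 to 1.88 over the 4 fits. With the 6 high-Snhg libraries left out neither was called, at 1.56 in Setdb1-KO and 0.98 in Setdb1-TKO, in a fit that takes a lone library to vary like the other groups.

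QKO libraries, with 71.0 and 100.1 TPM of Otx2, lay above those of control but were not called (0.72, SE 0.40, adjusted p = 0.178). The other genotypes overlapped with control or lay below it. Otx2 had 51.1 and 43.9 TPM in G9a-DKO, 33.2 and 62.7 TPM in G9a-TKO and 34.4 and 72.7 TPM in Suv39h1/2-DKO libraries. The lowest level without doxycycline was in G9a-KO, with 30.2 and 19.4 TPM (-1.03, SE 0.40, adjusted p = 0.0712), the opposite direction to G9a-KO of the first table. Primitive endoderm markers summed to 1316 to 1659 TPM in these G9a-KO libraries and to 867 to 981 TPM in control libraries. Within lines, Otx2 lay higher without Setdb1 in 4 of 4, with no overlap, a count not made over all genes. The log2 fold changes were 0.87 to 1.61, of which 1 was called. The 3 others were not, in comparisons that called 1.64% (Suv39h1/2 line), 4.96% (G9a line) and 3.31% (G9a;Suv39h1/2 line) of all genes. The range was 0.80 to 1.62 after median-ratio scaling.

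Fgf5 reached 1 TPM in the second table only in libraries without G9a, so that it entered the tests through the groups in which it was high. Fgf5 had 5.35 and 7.87 TPM in G9a-DKO libraries and 0.358 and 0.618 TPM in control libraries (2.34, SE 0.21, adjusted p = 4.09e-08), 3.50 and 3.54 TPM in QKO (1.61, SE 0.21, adjusted p = 5.31e-06) and 1.94 and 3.08 TPM in G9a-KO (1.22, SE 0.21, adjusted p = 0.000247). G9a-DKO over G9a-KO was 1.12 (SE 0.21, adjusted p = 0.00102), and it was not called after median-ratio scaling, at 0.99, nor with the 6 high-Snhg libraries left out, at 0.88. It was not called either without G9a-KO replicate 1 or G9a-DKO replicate 2 (both 0.88), and G9a-KO over control was not without G9a-KO replicate 2 (0.99). Fgf5 was near 0 in Suv39h1/2-DKO, with 0.0589 and 0.0298 TPM, and in Setdb1-TKO, with 0.126 and 0.0345 TPM. Neither was called over control with a pseudocount of 1, and with 0.1 both were, at -1.998 and -1.72. In Setdb1-KO Fgf5 had 0.387 and 0.431 TPM (-0.07 over control, adjusted p = 0.962). Pou3f1 had 12.4 and 10.99 TPM in G9a-KO (1.41, SE 0.25, adjusted p = 0.000462) and 14.5 and 8.72 TPM in G9a-DKO libraries (1.37, SE 0.25, adjusted p = 0.000322), against 3.85 and 3.67 TPM in control libraries. G9a-KO and G9a-DKO each called 2 of the 7 tested members over control, Fgf5 and Pou3f1, beside 7.97% and 13.2% of all genes, and QKO called 1, Fgf5, beside 14%. G9a-TKO called 0 of 7, beside 6.61%.

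Lef1 was lower in the lines without Suv39h1/2 that kept G9a. It had 1.37 and 3.03 TPM in Suv39h1/2-DKO and 1.06 and 3.73 TPM in Setdb1-TKO libraries, against 31.9 and 25.4 TPM in control libraries. On the log2 scale these were -3.25 (SE 0.47, adjusted p = 0.000254) and -3.24 (SE 0.47, adjusted p = 0.000122) over control. In the same comparisons 1.56% and 3.5% of all genes were called. Both lost the call when only the 2 compared groups were fitted. Where G9a was also lost it had 17.2 and 26.0 TPM in G9a-TKO and 12.9 and 17.8 TPM in QKO libraries. In the first table Suv39h1/2-DKO differed from control by -0.40 (SE 0.21, adjusted p = 0.499). Utf1, Pou5f1 and Sox2 were not called in any genotype, and the widest was Sox2 in G9a-KO, with 356 and 278 TPM against 482 and 432 TPM in control libraries (-0.53, SE 0.17, adjusted p = 0.028).

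**Figure D4:**
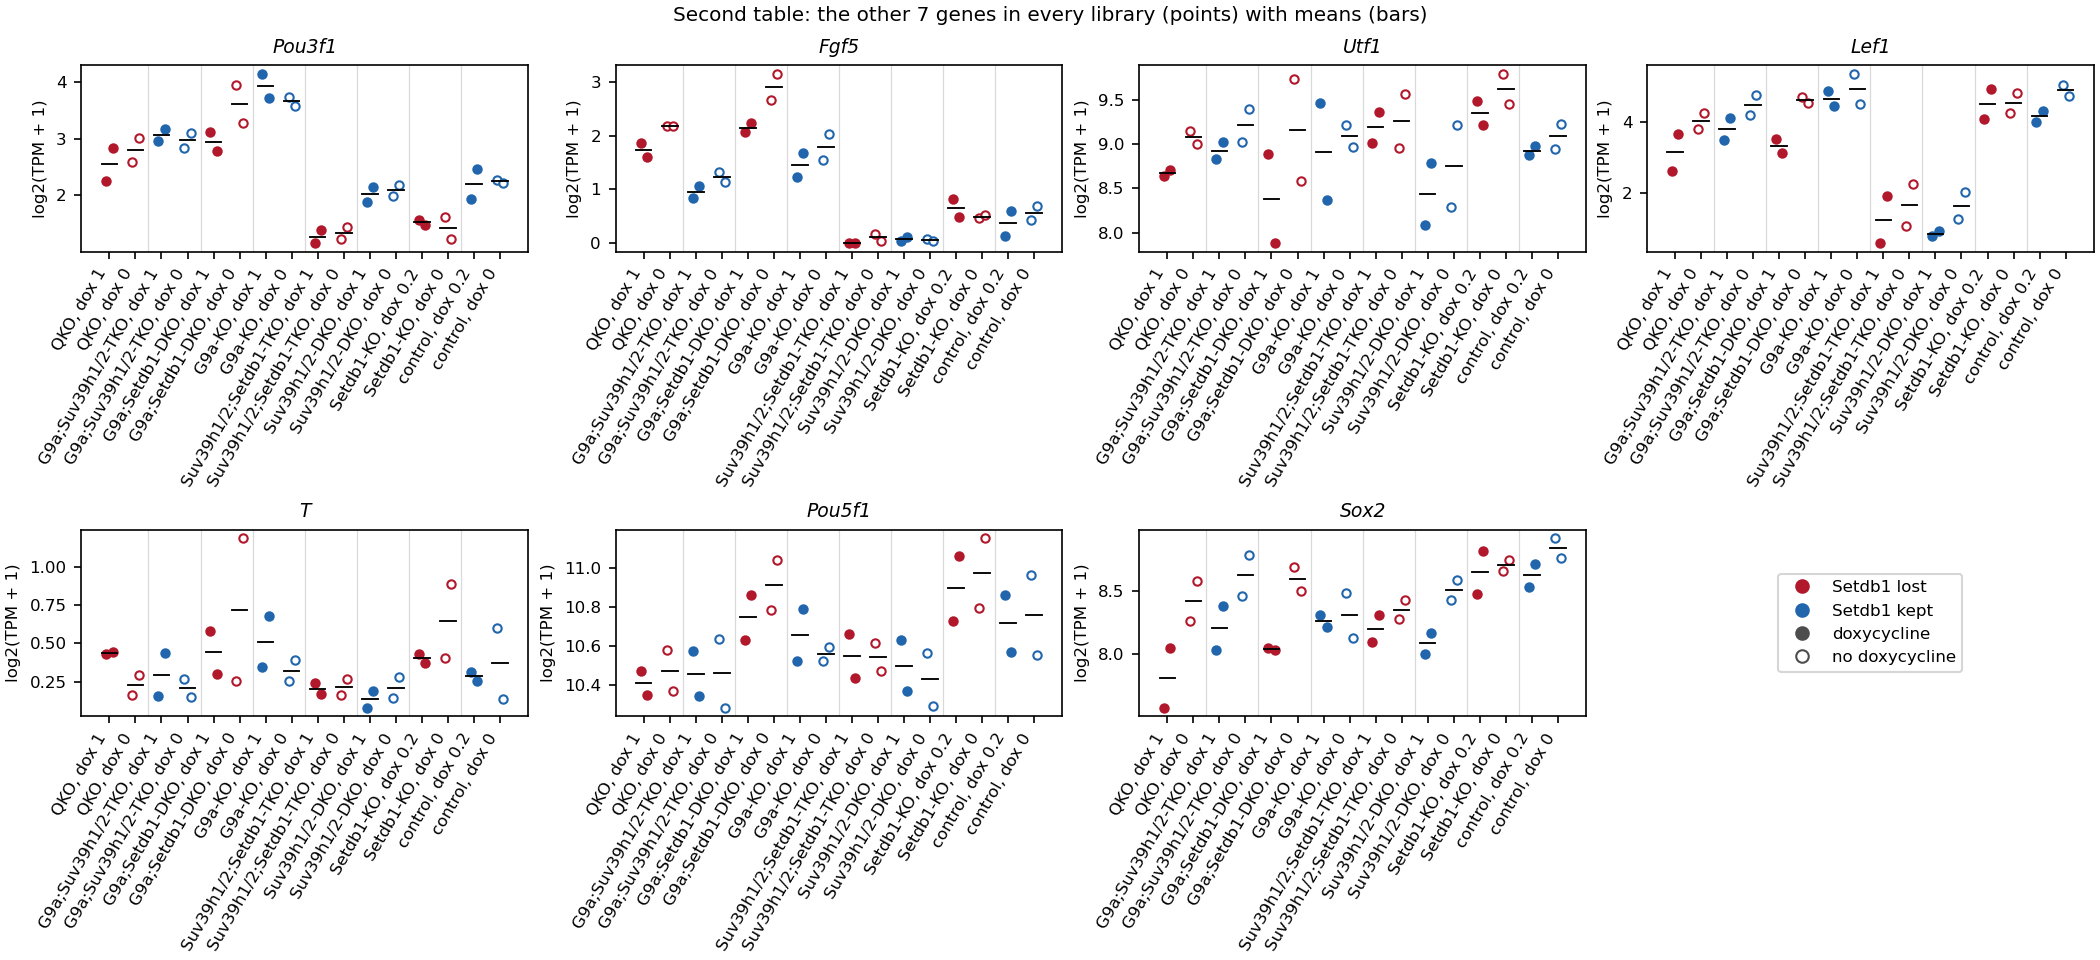
The other 7 members in each library of the Tet-on-Dux, Dux-KO lines, as log2(TPM + 1), each panel on its own scale. Points are libraries, filled with doxycycline, bars are means of 2 and red marks groups without Setdb1. Lef1 is lowest in the 4 groups without Suv39h1/2 that kept G9a, from 0.486 to 3.73 TPM.

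Doxycycline called 0 of the 7 tested members in any of the 8 lines by limma. An unadjusted p under 0.05 was reached in 10 of 56 tests, a count not made over all genes. With line and replicate number as a block, an alternative chosen after seeing the data, it called Otx2 in Suv39h1/2-DKO and Lef1 in G9a-DKO lower. Over all genes it called 44 to 255 per line, against 24 to 146 without the block. Without it the share of all genes called was 0.188% in control and 0.174% in Setdb1-KO lines at the label 0.2, and, at the label 1, 0.456% in Suv39h1/2-DKO, 0.253% in Setdb1-TKO, 0.97% in G9a-KO, 1.06% in G9a-DKO, 0.499% in G9a-TKO and 0.42% in QKO lines. Otx2 lay lower with doxycycline in 8 of 8 lines, by log2 fold changes of -1.19 to -0.10, and of -1.12 to -0.04 after median-ratio scaling. Its libraries did not overlap in 4 of the 8, beside 5 for Lef1 and Sox2, 4 for Fgf5, 2 for Utf1, 1 for Pou3f1 and 0 for Pou5f1. Within same-numbered pairs Otx2 and Lef1 were lower with doxycycline in 15 of 16. Utf1, Fgf5 and Sox2 were lower in 14, Pou3f1 in 10 and Pou5f1 in 9. Neither count was made over all genes, so neither is read as a result about the members. In Suv39h1/2-DKO Otx2 had 15.8 and 28.8 TPM with and 34.4 and 72.7 TPM without doxycycline. That was -1.19 (SE 0.40, adjusted p = 0.348, and 9.02e-06 by limma with that block). In G9a-DKO it had 24.0 and 23.6 TPM with and 51.1 and 43.9 TPM without (-0.97, SE 0.40, adjusted p = 0.182, and 3.78e-05 with the block, below the fold threshold). In QKO it had 40.7 and 56.8 TPM with and 71.0 and 100.1 TPM without (-0.80, SE 0.40, adjusted p = 0.338, and 0.000307 with the block), while 2-cell-like markers summed to 3344 to 3584 TPM with and 201 to 240 TPM without doxycycline. The median over all genes was itself below 0 in most lines, at -0.22 in G9a-DKO and -0.21 in QKO.

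Lef1 and Sox2 were also lower with doxycycline in 8 of 8 lines, at -1.29 to -0.03 and -0.61 to -0.04, with Lef1 at 0.01 in Setdb1-KO after median-ratio scaling. Utf1 lay lower in 8 of 8 (-0.77 to -0.07), but at 0.02 in control after that scaling. For Lef1 in G9a-DKO the values were 10.3 and 7.73 TPM with and 24.9 and 22.0 TPM without doxycycline (-1.29, SE 0.47, adjusted p = 0.123, and 0.00107 with the block). Fgf5 had the smallest adjusted p of the members, 0.0455 in G9a-DKO, with 3.19 and 3.69 TPM with and 5.35 and 7.87 TPM without doxycycline (-0.76, SE 0.21), below the fold threshold. Pou5f1 differed by -0.17 to 0.10 across the lines, lower in 5 of 8, and by -0.03 to 0.19 after that scaling, lower in 1. The difference of the doxycycline response with and without Setdb1, tested in 4 pairs of lines, was called by limma for 0 of 7 members, with 2 of 28 tests at an unadjusted p under 0.05. In these tests 0% of all genes were called, with 81 to 836 genes at an unadjusted p under 0.05, and the G9a pair called 39 genes with the high-Snhg libraries left out and 55 with the block. T reached 1.28 TPM in 1 library of the 32, G9a-DKO without doxycycline, and lay at or above 0.0585 TPM in all.

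**Figure D5:**
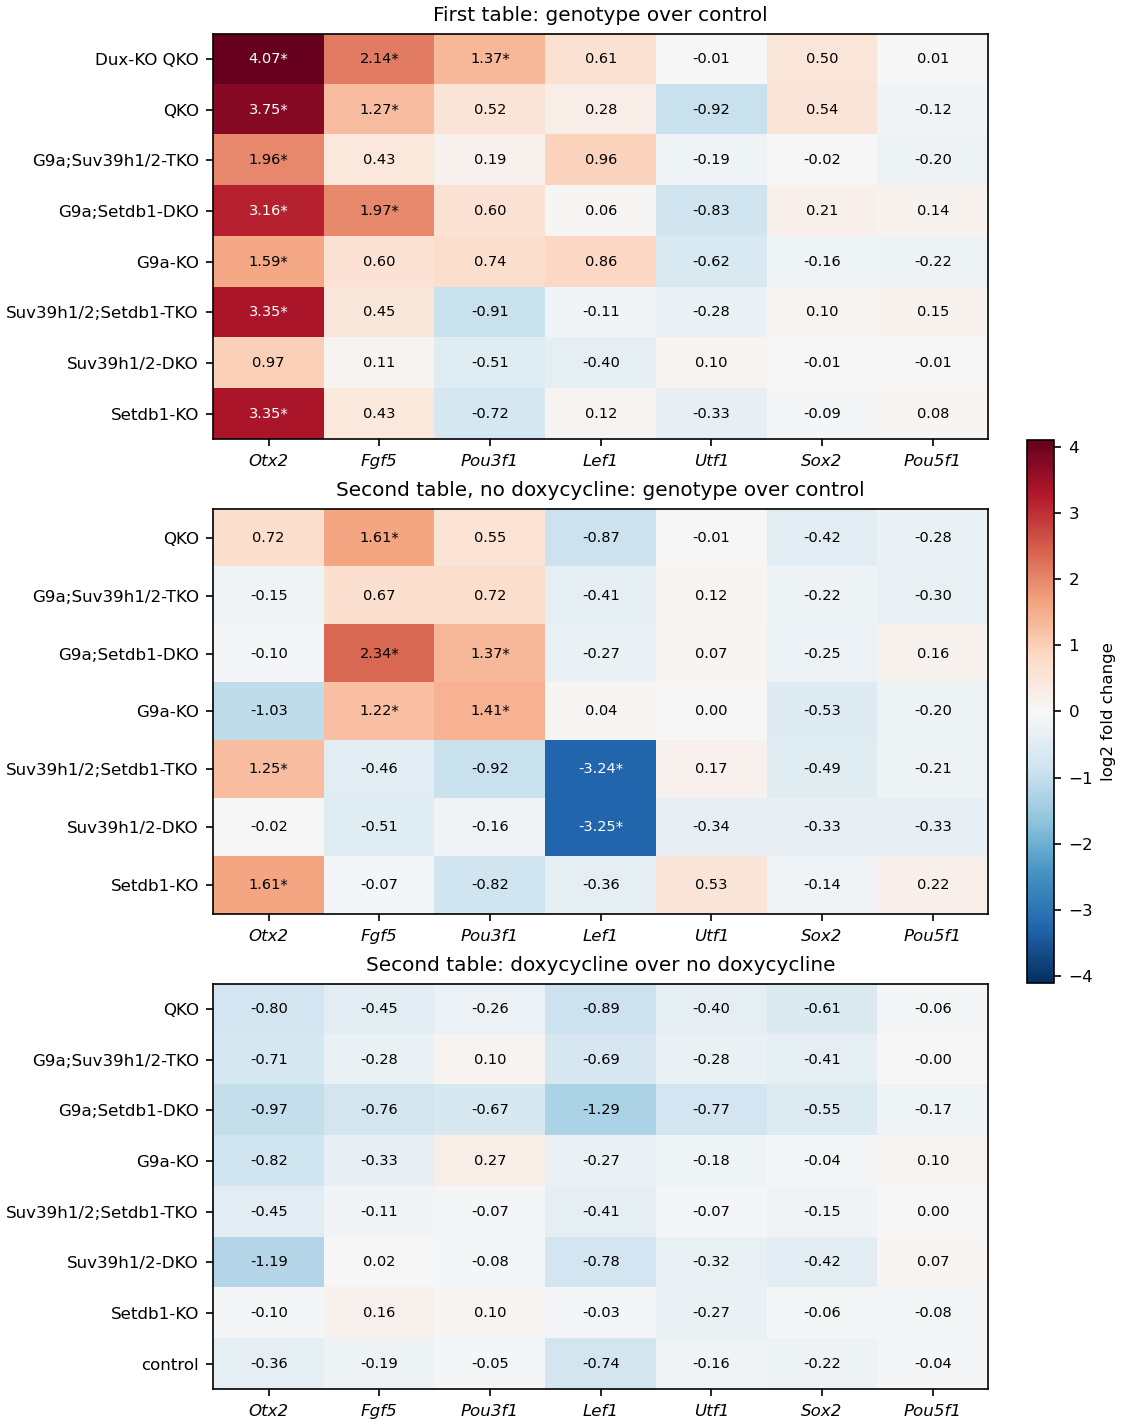
Log2 fold changes of the 7 tested members (columns) for genotypes over control in the first table (top), in the second table without doxycycline (middle) and for doxycycline over no doxycycline (bottom). Colour runs with the printed value and an asterisk marks a call. Otx2 has 7 calls in the top block and 2 in the middle block, and the bottom block has none.

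Genotypes of one table share their control libraries, so values for the members are given side by side and their likeness is not a result. Over the 9 group means of the first table, the pattern most like Otx2 among 5327 genes that spanned at least 1 log2 unit was that of Tulp4 (Pearson r = 0.979), followed by Commd3 (0.979), Dnajb3 (0.974), Tuba3a (0.974) and Ccny (0.973). Tulp4 had group means of 5.95 to 43.3 TPM. Over the 16 group means of the second table the order was Cdcp1 (0.973), Slc34a3 (0.969), Ripk4 (0.948), Nme4 (0.946) and Tap1 (0.945), among 6647 genes. Among the members, Fgf5 was nearest to Otx2 in the first table (r = 0.719) and Utf1 in the second (r = 0.713), where Pou3f1 ran opposite (r = -0.744). These are descriptions over group means that share libraries.

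For the other members the nearest patterns in the first table were Kcnk2, Kctd12 and Nlrp10 for Fgf5 (r = 0.99 to 0.991), Ppp1r1a, Pde1b and Pknox2 for Pou3f1 (0.975 to 0.982), Dnmt3b, Clec4a1 and Crmp1 for Lef1 (0.903 to 0.939) and Gdf15, Sh3bp2 and Tmem63c for Utf1 (0.937 to 0.96). In the second table they were Sh3rf2, Ankrd45 and Mapk10 for Fgf5 (0.969 to 0.971), Map1b, Shf and Cobll1 for Pou3f1 (0.965 to 0.971), Twf2, Pnrc1 and Zfp428 for Lef1 (0.963 to 0.975), Nrg2, Plod2 and Cldn6 for Utf1 (0.881 to 0.902) and Gltscr1l, Kdm7a and Smad6 for Sox2 (0.928 to 0.951).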

How the data were processed

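RNA was extracted with the AllPrep kit and made into TruSeq stranded mRNA libraries, read in pairs of 150 nt on an Illumina NovaSeq, per the labels' protocols. The submitters' processing notes name STAR 2.7.10b, Bowtie2 2.3.4.1, RSEM 1.3.1, SAMtools 1.9 and mm10, whose roles the sources used here do not say. The authors deposited gene TPM in 2 tables, normalised separately. Depth is therefore unknown and sets a limit on the precision of low values, and columns without a sample numbered 0.

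In R 4.3.3 with limma 3.58.1, log2(TPM + 1) was fitted with all groups of a table and a variance trend, for the 13862 and 13819 genes that reached 1 TPM in 2 or more libraries (9 and 16 residual degrees of freedom), without covariates, and adjusted by Benjamini-Hochberg over all genes of a comparison. Differences of effects came from the same fit. The fits were checked on simulated data. Alternatives were a pseudocount of 0.1, no filter, median-ratio scaling, a replicate block, only the compared groups, each library left out and, in the second table, the level of Snhg genes (a mean log2 level above 4) as a term or those libraries left out. Same-numbered libraries with and without doxycycline deviated together in all 8 lines (Pearson r over genes 0.177 to 0.748), a pairing read from the data and not from the labels, so line and replicate number were added as a block after the data were seen (8 residual degrees of freedom). The members and gene lists were chosen with earlier results of these data known. Named genes were the members, 2 annotated neighbours of Otx2 on each side, the genes of most similar group means without predicted names (5 for Otx2, 3 for others that spanned at least 1 log2 unit), and from each list the called gene of largest change in each direction and the most abundant uncalled gene, some of which are not reported here. Coordinates came from GENCODE M21 (GRCm38), start-site windows from RefSeq. Python 3.11.15 with matplotlib 3.10.9 drew the figures. Splice forms and repeats were not analysed here.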

Additional observations from a re-analysis of the deposited data

Results flagged for a closer look

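The effect of Setdb1 loss on 3 members differed between lines of the first table at a limma adjusted p under 0.05 for the difference. Only the Otx2 differences also passed the fold threshold, in comparisons that called 4.18% (G9a line) and 5.48% (G9a;Suv39h1/2 line) of all genes. The share of all genes at that adjusted p alone was not counted. For Otx2 the effect in the G9a line minus that in the control line was -1.77 on the log2 scale (SE 0.18, limma adjusted p = 3.86e-05), with log2 fold changes of 1.57 and 3.35 in these lines, higher without Setdb1 in both. For the G9a;Suv39h1/2 line minus the control line it was -1.56 (SE 0.18, adjusted p = 6.54e-05), with log2 fold changes of 1.79 and 3.35. Fgf5 differed the other way, with 0.93 for the G9a line minus the control line (SE 0.23, limma adjusted p = 0.017). Its log2 fold changes were 1.36 and 0.43, and 2.14 and 1.56 with a pseudocount of 0.1. Fgf5 entered the tests through the groups in which it was high, G9a-DKO among them, so this p-value is not independent of the filter. Its control libraries had 0.168 and 0.0517 TPM. Sox2 differed by 0.65 for the G9a;Suv39h1/2 line minus the control line (SE 0.20, limma adjusted p = 0.0398), with log2 fold changes of 0.56 and -0.09. The median over all genes in Setdb1-KO over control was itself -0.12. After median-ratio scaling, Sox2 lay higher without Setdb1 in 4 of 4 lines of the first table, at 0.0537 to 0.645. In the second table, without doxycycline, Sox2 lay lower without Setdb1 in 3 of 4 lines, with -0.20 to 0.29. The differences of Fgf5 and Sox2 lay below the fold threshold used for calls. Primitive endoderm markers, which summed to 1901 to 2263 TPM in G9a-KO and 438 to 445 TPM in control libraries, moved with the line, and their part was not tested.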

How the results depend on the processing

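Every Otx2 call of the first table was kept under each alternative, and no called value changed sign. There, a pseudocount of 0.1 raised Otx2 past the fold threshold in Suv39h1/2-DKO over control (1.08), in G9a-TKO over Suv39h1/2-DKO (1.05) and in the Suv39h1/2 line minus the control line (-1.08), the last also at -1.06 with median-ratio scaling. Leaving out 1 library gave 0.92 to 1.01 for Suv39h1/2-DKO over control and 0.87 to 1.12 for G9a-TKO over Suv39h1/2-DKO. In the second table, Setdb1-KO over control lost its Otx2 call when only the compared groups were fitted (1.61) or high-Snhg libraries were left out (1.56), and ranged from 1.35 to 1.88 with 1 library left out. Setdb1-TKO over control lost it without the filter or with only the compared groups (both 1.25), with the Snhg term (1.10) and with high-Snhg libraries left out (0.98), and ranged from 0.96 to 1.54 with 1 library left out. Setdb1-TKO over Suv39h1/2-DKO gained a call with the replicate block or the Snhg term (both 1.27) and ranged from 0.74 to 1.80 with 1 library left out. G9a-KO over control gained one with the replicate block (-1.03) and the Snhg term (-1.19). Across all members, the 21 calls of the first table were kept under each alternative, and of the 10 calls in the other, 9 were kept with a pseudocount of 0.1, no filter, median-ratio scaling or the Snhg term, 10 with the replicate block, 7 without high-Snhg libraries, 30 of 40 fits of a call with 1 library left out, and 3 with only the compared groups, a fit with few degrees of freedom. Replicate deviations of the genotypes compared correlated at -0.02 to 0.62 in the first table and -0.65 to 0.46 in the second, and the labels do not show that numbers pair samples there. For doxycycline, a replicate block within each line, added after seeing the data, moved Otx2 in Suv39h1/2-DKO (-1.19) and Lef1 in G9a-DKO (-1.29) into the calls and no other member, and raised the number of all genes called, for example to 133 in QKO, against 58 without it. The number of all genes called moved by over 1.5 times in 67 of 271 combinations of comparison and setting, for example from 871 to 1654 in Setdb1-KO over control with a pseudocount of 0.1, and in the second table from 348 to 0 with only the compared groups. TPM hold no depth, so no counting limit can be given for Fgf5 and T, whose values lie near or below 1 TPM.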
